A study of Arabidopsis thaliana with 18 samples.

Results

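AT1G26380, AT1G26390 and AT1G26410 are Arabidopsis thaliana genes for berberine-bridge-like (BBE-like) oxidoreductases that lie in 1 gene cluster on chromosome 1. They were taken by locus, each through the 1 probe set annotated to it (261021_at, 261020_at and 261006_at), and are 3 of 22 BBE-like genes and of 13286 genes with a named probe set on these arrays. They were chosen because earlier comparisons of these same arrays had shown them low in NRT1.1 lines against the wild type, so their levels against the wild type are given as a description, without a test. Roots were measured on 18 Affymetrix arrays, 3 for each of 6 genotypes, from plants grown in vitro on 10 mM NH4NO3 for 8 days. The genotypes were chl1-5, a known deletion mutant of the nitrate transporter and sensor NRT1.1; chl1-9, a known point mutant of NRT1.1; chl1-12, a further NRT1.1 allele with no lesion named in the labels; T101A and T101D, NRT1.1 forms in which a threonine that is normally phosphorylated is exchanged, in T101A for an alanine without a phosphorylation site and in T101D for an aspartate that imitates the phosphate; and the wild type col (Columbia). The labels state neither the background and promoter of the T101 forms nor whether replicates were separate cultures, and the p-values below therefore rest on a spread between arrays that may be technical.

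BBE-like proteins are secreted, flavin-containing enzymes of the family of the berberine bridge enzyme, the alkaloid enzyme of poppies and their relatives that gave the family its name. In Arabidopsis some of them oxidise cell wall oligosaccharides and release hydrogen peroxide, and others oxidise lignin precursors. AT1G26380 is known as FOX1, an oxidase that makes indole carbonyl nitrile, a tryptophan-derived defence compound, and genes of this cluster are known to be induced by microbial elicitors. The substrates of AT1G26390 and AT1G26410 are not described here. The reference order of the cluster is AT1G26380, AT1G26390, AT1G26400, AT1G26410 and AT1G26420, all 5 of them BBE-like and all measured.

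AT1G26390 had intensities of 203, 165 and 46.4 in the chl1-5 arrays, 18.7, 26.8 and 26.1 in chl1-9, 250.2, 89.1 and 178 in chl1-12, 218, 382 and 96.3 in T101A, and 1170.0, 1389 and 597 in T101D, against 1833, 2432 and 1564 in col. Every array of the 5 lines lay below every col array, and the T101D arrays lay above every array of the other 4 lines. The means were 138 ± 82, 23.9 ± 4.5, 172 ± 81, 232 ± 144 and 1052 ± 409 in chl1-5, chl1-9, chl1-12, T101A and T101D, against 1943 ± 444 in col (SD, n = 3 each). Mean levels were therefore 7.10%, 1.23%, 8.87%, 12.0% and 54.1% of that of col. The chl1-9 arrays were close to an intensity of 16, under which 16.5% to 19.5% of the probe sets of each array lay. The share of 1.23% is therefore approximate.

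AT1G26380, the FOX1 gene, had 79.0, 104 and 43.4 in chl1-5, 14.2, 27.0 and 26.9 in chl1-9, 114, 43.9 and 71.8 in chl1-12, 91.0, 215 and 78.0 in T101A, and 483, 654 and 227 in T101D, against 545, 630 and 607 in col. Only T101D overlapped with col, through 1 array above the col range, while the other 2 lay below it. Mean levels were 12.7%, 3.82%, 12.9%, 21.6% and 76.5% of the col mean in chl1-5, chl1-9, chl1-12, T101A and T101D. In chl1-9, where 1 array lay under 16, the share is approximate. The col arrays were close together at 594 ± 44 and the T101D arrays far apart at 454 ± 215 (SD, n = 3 each).

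AT1G26410 had 29.4, 27.4 and 4.96 in chl1-5, 4.50, 0.977 and 7.71 in chl1-9, 42.3, 41.4 and 43.7 in chl1-12, 38.0, 71.4 and 15.5 in T101A, and 93.3, 159 and 94.0 in T101D, against 172, 192 and 181 in col. All arrays of the 5 lines lay below the col range. All 3 chl1-9 arrays were under 16, as 16.5% to 19.5% of the probe sets of each array were, and no order is read among such low values. Mean levels were 11.3%, 23.4%, 22.9% and 63.5% of the col mean in chl1-5, chl1-12, T101A and T101D, and in chl1-9 at most 8.80%, which is the share that the level of 16 makes up of the col mean. In chl1-5 and in T101A 1 array each was also under 16, so their shares are approximate.

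On the scale log2(intensity + 16), which understates the change of dim probe sets, the fitted difference from col of AT1G26390 was -3.83, -5.60, -3.45, -3.14 and -0.94 in chl1-5, chl1-9, chl1-12, T101A and T101D (SE 0.51). That of AT1G26380 was -2.79, -3.99, -2.79, -2.20 and -0.49 (SE 0.40), and that of AT1G26410 was -2.52, -3.29, -1.76, -1.90 and -0.62 (SE 0.33). In T101D these values turned on single arrays: that of AT1G26380 was -0.08 without T101D replicate 3 and -0.81 without T101D replicate 2, and that of AT1G26390 was -0.58 without T101D replicate 3. The value of AT1G26410 in chl1-9 depends on the pseudocount and gives no exact size. These 5 comparisons share the col arrays. All 3 genes lay below col without overlap in chl1-5, chl1-9, chl1-12 and T101A, where 12.5%, 9.08%, 10.1% and 12% of all 22746 tested probe sets did so, and 2 of 3 did in T101D, where 9.63% did. The shares of probe sets called lower than col at a limma adjusted p under 0.05 were 0.822%, 1.64%, 0.558%, 0.712% and 0.0835% in chl1-5, chl1-9, chl1-12, T101A and T101D, and those called higher 1.35%, 1.75%, 0.941%, 1.52% and 0.171%. Nothing is read from these counts, since the genes were chosen on these comparisons. In bulk roots, fewer cells with a transcript and less transcript per cell cannot be told apart.

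**Figure D1:**
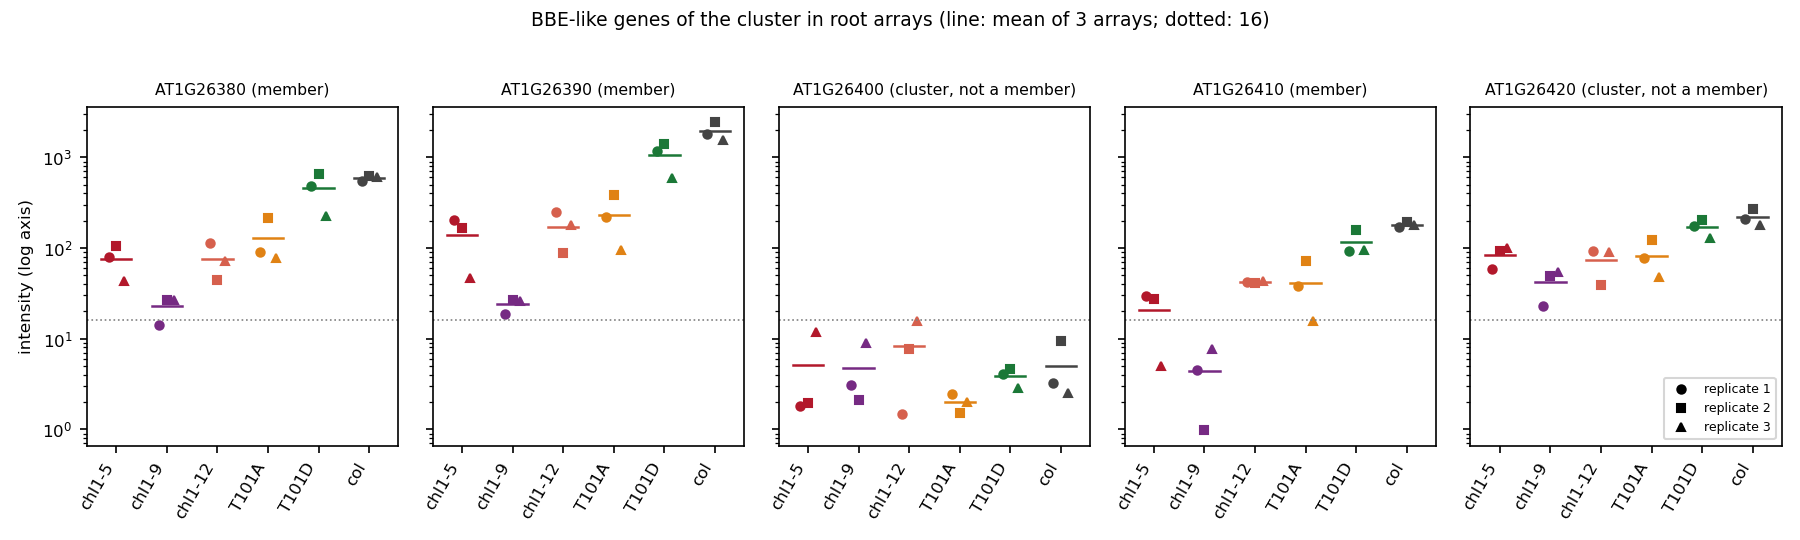
Intensity on a log axis of the 5 BBE-like genes of the cluster in each of 18 root arrays, by genotype, with the 3 arrays of a genotype as separate symbols, their mean as a line and the level of 16 dotted. AT1G26380, AT1G26390, AT1G26410 and AT1G26420 are lowest in chl1-9 and, among the 5 lines, highest in T101D, while AT1G26400 stays under 16 in all arrays.

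The order of the lines was nearly the same in the 3 genes. By mean level it ran chl1-9, chl1-5, chl1-12, T101A, T101D and col for AT1G26380 and AT1G26390, and for AT1G26410 the means of T101A (41.7) and chl1-12 (42.5) were in the other order. The question left by the choice of the genes is which lines differ from each other, and it was tested over 10 pairs of lines and with an F test over the 5 lines. The col arrays enter these tests only through the shared estimate of the spread. All 3 genes differed among the 5 lines in limma's moderated F test, with adjusted p of 0.00523 for AT1G26380, 0.00395 for AT1G26390 and 0.00855 for AT1G26410, against 0.888% of all probe sets called in it. The line arrays also served to choose the genes, so the F test and the tests between lines are not independent of that choice.

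The largest difference lay between chl1-9 and T101D, the lines at either end of the order. AT1G26390 averaged 23.9 in chl1-9 and 1052 in T101D, a log2 difference of -4.66 ± 0.51 (SE) with a limma adjusted p of 0.000223. AT1G26380 differed by -3.502 ± 0.40 (limma adjusted p = 0.000366). AT1G26410, dim in all chl1-9 arrays, was at least 7.21-fold lower there than in T101D when chl1-9 is set at the level of 16 (limma adjusted p = 0.000662). Its fitted difference of -2.66 ± 0.33 was -4.63 with a pseudocount of 1 and -1.37 with one of 64. In this comparison limma called 1.1% of all probe sets lower at an adjusted p under 0.05. In each gene the 3 chl1-9 arrays lay below the 3 T101D arrays. The share of all probe sets without such overlap is not given for this pair. It was 7.03% for chl1-9 below chl1-5 and 5.1% for T101A below T101D, so nothing is read from the lack of overlap. Leaving out any 1 of the 6 arrays left all 3 genes past the threshold.

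T101D was also above chl1-5, with 3 of 3 genes called higher where 0.198% of all probe sets were. AT1G26390 averaged 1052 in T101D and 138 in chl1-5, a log2 difference of 2.90 ± 0.51. AT1G26380 differed by 2.3005 ± 0.40 and AT1G26410 by 1.89 ± 0.33, and the limma adjusted p was 0.0235 for each of the 3 genes. No gene of the 3 stayed past the threshold without T101D replicate 1, T101D replicate 2 or chl1-5 replicate 3, with a pseudocount of 1, or in a fit of the 6 arrays compared.

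In chl1-12 against T101D, AT1G26380 averaged 76.6 in chl1-12 and 454 in T101D and was lower (log2 difference -2.296 ± 0.40, limma adjusted p = 0.0278), in a comparison that called 0.106% of all probe sets lower. AT1G26390, at -2.52 ± 0.51, had a limma adjusted p of 0.0716 and AT1G26410, at -1.13 ± 0.33, one of 0.262. The call of AT1G26380 was lost without chl1-12 replicate 2 or 3 or T101D replicate 1 or 2. The T101A form, which differs from T101D at 1 residue, had means of 232 for AT1G26390, 128 for AT1G26380 and 41.7 for AT1G26410, against 1052, 454 and 115 in T101D. The T101A arrays of all 3 genes lay below all T101D arrays, as those of 5.1% of all probe sets did. The log2 differences were -2.20 ± 0.51, -1.71 ± 0.40 and -1.27 ± 0.33, and the limma adjusted p lay between 0.249 and 0.326, so none of the 3 passed, although all 3 had an unadjusted p under 0.05. The 95% confidence intervals of these differences, not adjusted for the number of probe sets, ran from -3.29 to -1.12, from -2.57 to -0.85 and from -1.98 to -0.57. Between these 2 forms 0.0352% of all probe sets were called, 8 of 22746.

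Among chl1-5, chl1-9, chl1-12 and T101A, 1 of the 18 tests (6 pairs of lines by 3 genes) passed the threshold. AT1G26390 was lower in chl1-9 than in T101A, with means of 23.9 and 232, a log2 difference of -2.46 ± 0.51 and a limma adjusted p of 0.0451, where 0.431% of all probe sets were called lower. This call was lost without any 1 of chl1-9 replicates 1, 2 and 3 and T101A replicates 1 and 2. Without T101A replicate 3 the count of called genes was 2. In the same pair AT1G26380, at -1.79 ± 0.40, and AT1G26410, at -1.39 ± 0.33, had limma adjusted p of 0.0661 and 0.0749. At an unadjusted limma p under 0.05, all 3 genes passed in chl1-9 against each of chl1-5, chl1-12 and T101A. In chl1-12 against chl1-5 it was 1 gene, and in T101A against chl1-5 and chl1-12 against T101A 0. The share of all probe sets at that unadjusted level is not given. Between chl1-9 and chl1-5 the log2 differences were -1.77, -1.202 and -0.77 for AT1G26390, AT1G26380 and AT1G26410, with limma adjusted p between 0.1999 and 0.386, where 0.237% of all probe sets were called. AT1G26390 and AT1G26380 did not overlap between these 2 lines, being lower in chl1-9 as 7.03% of all probe sets were. Between chl1-9 and chl1-12 the log2 differences were -2.15, -1.21 and -1.53, with limma adjusted p between 0.099 and 0.282, where 0.176% of all probe sets were called. Among T101A, chl1-12 and chl1-5, the lines next to each other in the middle of the order, no gene of the 3 passed the threshold, where few probe sets were called at all (0.0044% for T101A against chl1-5, 0.0396% for chl1-12 against chl1-5 and 0.044% for chl1-12 against T101A). T101A minus chl1-5 lay between 0.59 and 0.70 with intervals from -0.39 to 1.78 for AT1G26390, from -0.27 to 1.45 for AT1G26380 and from -0.09 to 1.32 for AT1G26410. Chl1-12 minus chl1-5 was 0.00 for AT1G26380, 0.38 for AT1G26390 and 0.76 for AT1G26410, with limma adjusted p of 0.9998 for each. The interval of AT1G26410 ran from 0.06 to 1.46, with an unadjusted p of 0.0362, and its 3 chl1-12 arrays lay above the 3 chl1-5 arrays, as those of 5.31% of all probe sets did. The intervals of AT1G26380 and AT1G26390 ran from -0.86 to 0.86 and from -0.71 to 1.46. Chl1-12 minus T101A lay between -0.59 and 0.14.

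**Figure D2:**
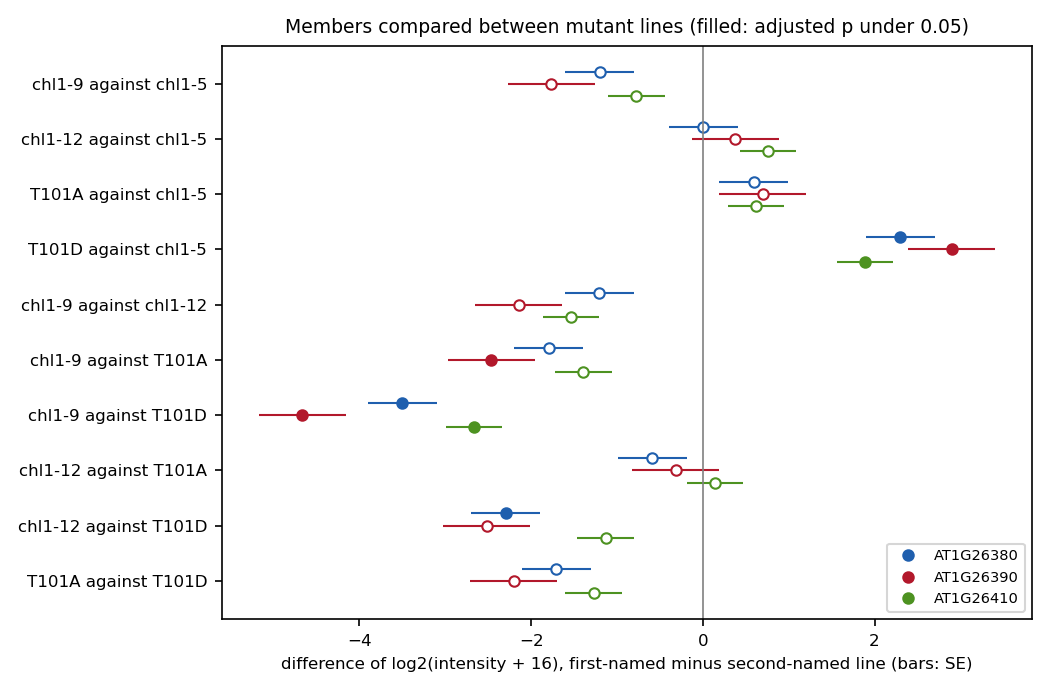
Difference of log2(intensity + 16) between mutant lines for AT1G26380, AT1G26390 and AT1G26410 in each of the 10 pairs, first-named minus second-named line, with the SE as bars and filled points where the limma adjusted p was under 0.05. All 3 genes pass in chl1-9 against T101D and in T101D against chl1-5, and 1 gene passes in chl1-9 against T101A and in chl1-12 against T101D.

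The 3 genes also moved together between arrays of the same genotype, a comparison that the choice of the genes did not use. Their spread was wide, with an SD between arrays of a genotype of 0.68 for AT1G26390, 0.54 for AT1G26380 and 0.44 for AT1G26410 on the log2 scale, against a median of 0.20 over all probe sets. Among probe sets whose highest genotype mean was within a factor of 2 of their own, 99.4%, 99.3% and 97.5% had an SD no larger than theirs. Array T101A replicate 2 was above its genotype mean by 0.86 for AT1G26390, 0.80 for AT1G26380 and 0.72 for AT1G26410. Array chl1-5 replicate 3 was below it in all 3, at -1.12, -0.57 and -0.72, and T101A replicate 3 was at -0.96, -0.50 and -0.75. In 11 of 18 arrays the 3 genes lay on the same side of the genotype mean.

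Over the 18 arrays these deviations correlated with r = 0.88 between AT1G26380 and AT1G26390, 0.82 between AT1G26390 and AT1G26410, and 0.70 between AT1G26380 and AT1G26410. Spearman's rho for the same pairs was 0.87, 0.72 and 0.58. Over 7852 other probe sets with 1 gene and a genotype mean of at least 100, 99% had an r with these genes under 0.58 to 0.60, and the median was between -0.03 and -0.01. Those probe sets were not matched to the wide spread of the 3 genes, and their replicate number means were kept in. The points share the array, its scaling and the replicate number. Replicate number 3 was below the genotype mean in 4 of 6 genotypes in each of the 3 genes, and without the mean deviation of each replicate number the correlations were 0.87, 0.78 and 0.59. These are descriptions of 18 arrays and carry no p. The deviations of the col arrays ran from -0.12 to 0.08 for AT1G26380, from -0.07 to 0.07 for AT1G26410 and from -0.29 to 0.35 for AT1G26390.

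**Figure D3:**
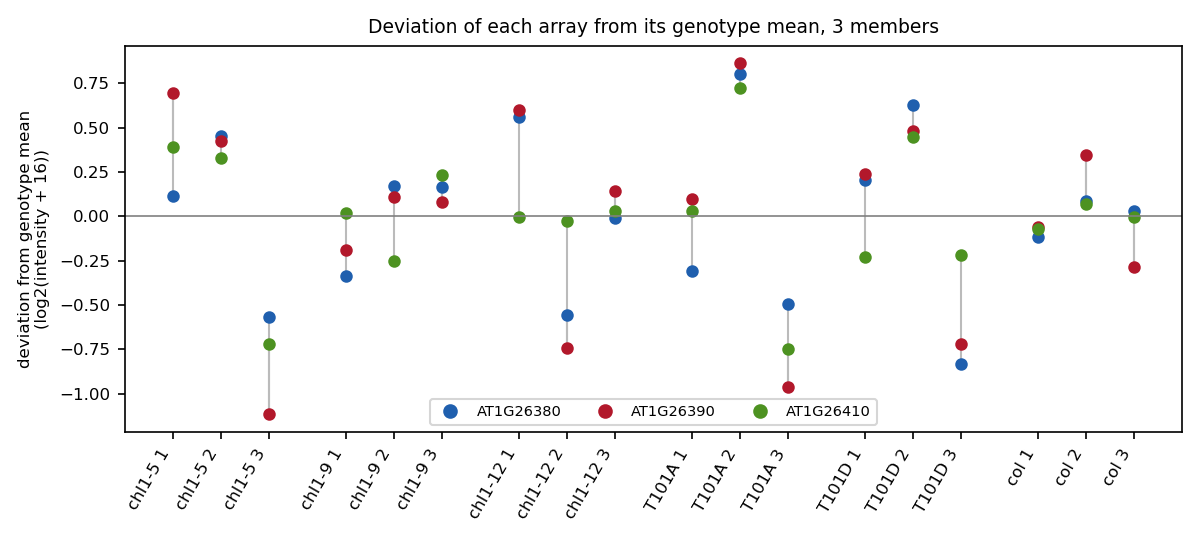
Deviation of each of the 18 arrays from its genotype mean, in log2(intensity + 16), for AT1G26380, AT1G26390 and AT1G26410, with the 3 genes of an array joined by a line. T101A replicate 2 is above and chl1-5 replicate 3 and T101A replicate 3 are below the mean in all 3 genes.

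The remaining BBE-like genes of the cluster were not members and were tested against col. AT1G26420, at the far end of the cluster, had 58.4, 92.1 and 99.4 in chl1-5, 23.2, 49.5 and 54.8 in chl1-9, 93.6, 39.4 and 90.2 in chl1-12, 77.2, 121 and 48.4 in T101A, and 174, 205 and 129 in T101D, against 207, 270.2 and 179 in col. It fell in chl1-9 (log2 difference -2.03 ± 0.32, SE, limma adjusted p = 0.0024) and in chl1-12 (-1.42, limma adjusted p = 0.0419), and the call in chl1-12 was lost in 9 of 15 alternatives, among them each of the 6 with 1 array left out. The differences of -1.25 in chl1-5 and -1.31 in T101A had limma adjusted p of 0.0634 and 0.0503, and that of -0.34 in T101D one of 0.772. AT1G26420 was also lower in chl1-9 than in T101D, at 42.5 ± 16.9 and 170 ± 38 (SD, n = 3 each), a log2 difference of -1.69 (limma adjusted p = 0.0143). In that comparison 1.1% of all probe sets were called lower. Its deviations correlated with those of AT1G26380, AT1G26390 and AT1G26410 with r = 0.68, 0.56 and 0.34.

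AT1G26400, which lies between AT1G26390 and AT1G26410, was under 16 in all 18 arrays, from 1.49 to 15.6. Its genotype means lay between 1.99 and 8.23, and no direction can be given for it. Cross-hybridisation among the probe sets of these related genes was not tested.

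The rest of the family, AT1G26400 and AT1G26420 included, differed from gene to gene. Of the 19 measured BBE-like genes beside the 3 members, 6 were lower in chl1-9 and 0 higher, where 1.64% of all probe sets were called lower. They were AT1G26420, AT1G30700 (-1.13), AT2G34810 (-0.98), AT4G20830 (-0.67), AT4G20860 (-0.59) and AT5G44380 (-0.37), with limma adjusted p between 0.0024 and 0.0487. AT4G20830 encodes an oligogalacturonide oxidase, which acts on pectin fragments, and averaged 1128 ± 89 in chl1-9 and 1822 ± 353 in col. AT4G20860 encodes a cellodextrin oxidase, which acts on cellulose fragments, and averaged 1407 ± 187 in chl1-9 and 2123 ± 183 in col (SD, n = 3 each). AT4G20860 was also lower in chl1-9 than in T101A (-0.63, limma adjusted p = 0.048), where 0.431% of all probe sets were called lower. Between lines, 1 of the 19 genes was called in chl1-9 against T101A and 1 in chl1-9 against T101D, and 0 in every other pair. These calls between lines were not rerun under the alternatives. The count of 6 was 1 without chl1-9 replicate 1 or without col replicate 2, 3 without chl1-9 replicate 3, 2 without col replicate 3 and 1 in a fit of the 6 arrays compared.

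In the other lines few family genes passed, as did few of all probe sets. Of these, 1.35%, 0.941%, 1.52% and 0.171% were called higher in chl1-5, chl1-12, T101A and T101D, and 0.822%, 0.558%, 0.712% and 0.0835% lower. With 19 genes, such low counts are not read as a result about the family. AT4G20820 rose in chl1-5, at 303 ± 8 against 174 ± 57 in col (SD, n = 3 each), with a log2 difference of 0.79 ± 0.16 and a limma adjusted p of 0.0161, the opposite direction to that of the 3 members. It was lost without chl1-5 replicate 2 or 3 or col replicate 1 or 2. AT1G26420 was the 1 gene of 19 called in chl1-12. None of the 19 was called by limma in T101A or T101D, where 3 and 0 had an unadjusted p under 0.05. The median log2 difference of the 19 genes lay between -0.05 and -0.01 in the 5 lines, against -0.03 to 0.00 over all tested probe sets. The genotype means of 9 of the 19 stayed under 100, and those of 5 stayed under 16, where a fall cannot be seen.

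**Figure D4:**
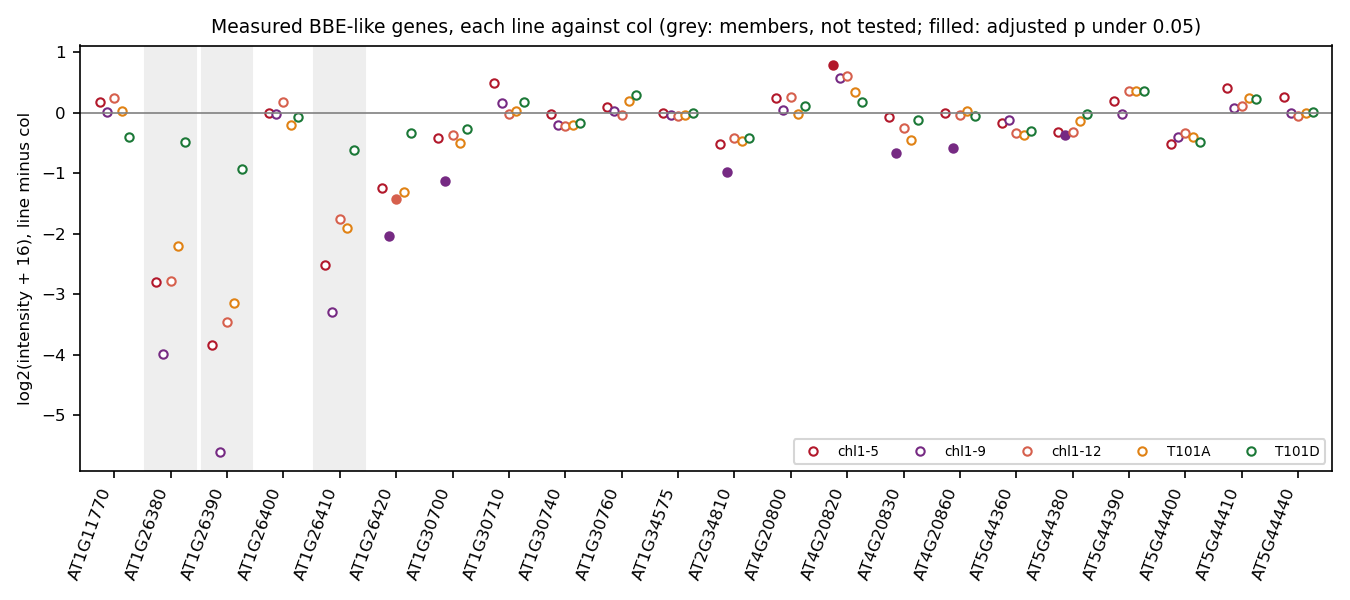
Difference of log2(intensity + 16) between each line and col for the 22 measured BBE-like genes in locus order, with a point per line, filled where the limma adjusted p was under 0.05, and the 3 members, which were not tested, shaded. The members reach -5.60, AT1G26420 reaches -2.03 in chl1-9 and AT1G30700 -1.13, while AT4G20820 lies above 0 in all 5 lines.

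The genes on either side of the cluster were measured to see how far along the chromosome the differences ran. On one side, the nearest measured gene, AT1G26350, averaged between 5.02 and 17.3 in the lines and 5.22 in col, too dim for a direction. On the other side, AT1G26450 averaged 313 (chl1-5), 257 (chl1-9), 312 (chl1-12), 291 (T101A) and 366 (T101D), against 376 in col, with limma adjusted p between 0.1697 and 0.977. Of all probe sets, 0.822% were called lower in chl1-5 and 1.64% in chl1-9. Of 20 measured genes from AT1G26200 to AT1G26600 outside the cluster, 1 was lower in chl1-5 and in chl1-9, and none was higher. It was AT1G26520, at 142 ± 0.34 in chl1-5 and 130 ± 29 in chl1-9, against 216 ± 26 in col (SD, n = 3 each), with log2 differences of -0.55 and -0.69 and limma adjusted p of 0.0362 and 0.00678. Its call in chl1-5 was lost whichever of the 6 arrays was left out. At an unadjusted limma p under 0.05, 2, 4, 4, 1 and 0 of the 20 passed in chl1-5, chl1-9, chl1-12, T101A and T101D. The differences of the 20 neighbours lay between -1.13 (AT1G26240) and 0.67 (AT1G26220), and their medians between -0.06 and -0.02.

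**Figure D5:**
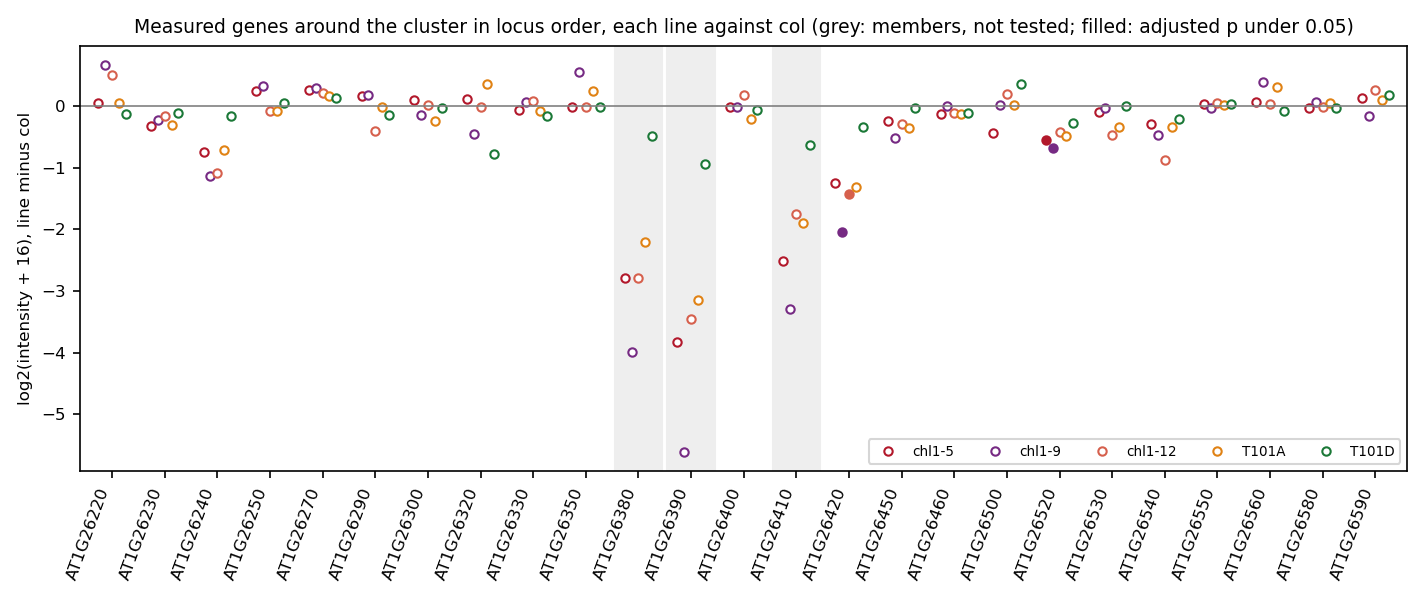
Difference of log2(intensity + 16) between each line and col for the measured genes from AT1G26220 to AT1G26590 in locus order, with a point per line, filled where the limma adjusted p was under 0.05, and the 3 members, which were not tested, shaded. AT1G26380, AT1G26390, AT1G26410 and AT1G26420 reach -2.03 or lower in chl1-9, and the genes outside the cluster stay between -1.13 and 0.67.

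The pathway around FOX1 could be followed through few genes, since 2 of 25 listed genes of indole carbonyl nitriles, camalexin and indole glucosinolates had a named probe set. CYP71B6 (AT2G24180), a cytochrome P450 that converts indole acetonitrile to indole carboxylic acid, averaged 1960 ± 168 (chl1-5), 1430 ± 154 (chl1-9), 1737 ± 259 (chl1-12), 2030.0 ± 439 (T101A) and 2592 ± 335 (T101D), against 2745 ± 181 in col (SD, n = 3 each). It fell in chl1-9 (log2 difference -0.94 ± 0.16, SE, limma adjusted p = 0.00401), where 1.64% of all probe sets were called lower. UGT74B1, a glucosyltransferase of glucosinolate synthesis, was not called in any line. Of 25 elicitor and defence genes 6 were measured (WRKY53, WRKY22, CML41, PDF1.2, BIK1 and EFR), and 0 were called by limma in any line, with 0 to 2 per line at an unadjusted p under 0.05. Their medians lay between -0.08 and 0.22. Per line, 0.0835% to 1.64% of all probe sets were called lower and 0.171% to 1.75% higher. A count of 0 among 6 genes is therefore not read as a result about them.

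Over the 18 arrays, the profile of the 3 genes was matched most closely by AT5G38910, which encodes a germin-like protein (r = 0.98 and Spearman's rho = 0.94 with the mean of their standardised profiles). AT5G38910 had mean intensities of 216 ± 83 (chl1-5), 84.5 ± 17.5 (chl1-9), 277 ± 101.3 (chl1-12), 415 ± 348 (T101A) and 1497 ± 484 (T101D), against 2147 ± 1031 in col (SD, n = 3 each). It was followed by AT2G15220, a gene for a secreted protein (0.96), CCOAMT, a gene of the caffeoyl-CoA methyltransferase family (0.96), AT4G16260, a beta-glucanase family gene (0.94), AT2G29340 (0.94), AT2G16900 (0.94), AT3G60420 (0.93), AT5G39670 (0.93), AT3G18250 (0.93) and AT1G36640 (0.93). Of 7852 probe sets compared, 18 had an r over 0.9, AT1G26420 among them at rank 15, and the median r was 0.03. Such an r takes in the difference of col and T101D from the other 4 lines. Within genotypes, the deviations of AT5G38910 from its genotype means correlated with those of the 3 genes at r = 0.86, those of CCOAMT at 0.81 and those of AT3G60420 at 0.80, while AT4G16260 had 0.32, the level that 10% of the probe sets exceeded.

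The most opposite profiles belonged to AT4G00780 (r = -0.92), the lipid-transfer-like gene AT4G12500 (-0.91), AT1G07550 (-0.90), AT3G50350 (-0.89) and OCT1, a gene for an organic cation and carnitine transporter (-0.89). AT4G12500 averaged 1115 ± 105 (chl1-5), 1374 ± 66 (chl1-9), 1084 ± 323 (chl1-12), 856 ± 111 (T101A) and 175 ± 46 (T101D), against 93.2 ± 18.3 in col (SD, n = 3 each). Its deviations within genotypes had an r of -0.05 with those of the 3 genes, and those of OCT1 one of -0.25.

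As a check of the tissue, 4 of 13 listed root markers were measured, the root hair genes EXPA7, EXPA18, AT3G49960 and AT4G26010. All 4 were above 16 in all genotypes. Their summed intensity per array was 6294 to 7492 in chl1-5, 4856 to 6375 in chl1-9, 6010 to 6803 in chl1-12, 6892 to 7532 in T101A and 6143 to 7080 in T101D, against 3975 to 4968 in col. AT3G49960 was called higher in all 5 lines, AT4G26010 in chl1-5 and T101A, and EXPA18 in T101A. Of all probe sets, 1.35%, 1.75%, 0.941%, 1.52% and 0.171% were called higher in chl1-5, chl1-9, chl1-12, T101A and T101D. Of 10 listed markers of green tissue 3 were measured, RCA, HPR and SBPASE. They were present too, with sums of 1566 to 2128 in chl1-5, 1260 to 2011 in chl1-9, 1241.8 to 2165.5 in chl1-12, 1205 to 1587 in T101A and 672 to 1047 in T101D, against 1656 to 2475 in col. HPR and SBPASE were lower in T101D (limma adjusted p = 0.0428 for each), where 0.0835% of all probe sets were called lower. At an unadjusted limma p under 0.05, all 3 green markers were lower in both T101A and T101D, and 0 passed in the other lines. The sums of both marker lists are levels of the marker genes, not measured shares of tissue. The part of tissue composition in the levels of the BBE-like genes was not tested. Array medians lay between 184 and 197, and the 5'/3' ratio of the GAPDH controls, a measure of RNA integrity, ran from 0.729 in chl1-9 replicate 3 to 0.981 in chl1-12 replicate 2.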

How the data were processed

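The authors deposited 1 table of probe set intensity values on a linear scale. Per the labels' protocols, RNA was extracted with TRIzol and labelled with biotin for Affymetrix arrays; no source used here names the summarisation software or background correction. In the deposited values every array has a mean of 500 after 2% of its probe sets is trimmed at each end, so differences are relative to that mean.

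Tests covered 22746 probe sets, without the 64 controls. A model with 1 coefficient per genotype was fitted to log2(value + 16) over 18 arrays with limma 3.58.1 in R 4.3.3 and adjusted by Benjamini-Hochberg per comparison at 0.05. The number of arrays limits the precision. In data simulated for T101A against T101D over 22746 probe sets, changes of 0.5, 1 and 2 on the log2 scale were called in 28.4%, 64.2% and 92.4% of cases, and 6 unchanged probe sets were called. The changes were given to 67, 67 and 66 randomly drawn probe sets, each with its own spread. The 3 genes had wider spreads than most, with SDs of 0.44 to 0.68, and the measured comparison called 8 probe sets. These shares therefore do not give the chance of a call for the 3 genes. Probe sets were named by platform annotation (13513 with 1 gene, 13436 of them matched to RefSeq, TAIR10.1), and of several probe sets for a gene the brightest was used. The members and lists were chosen with earlier results of these data known. Genes named are the members, called list members, and the 10 most alike and 5 most opposite profiles. Tables and plots used Python 3.11.15, pandas 2.3.3 and matplotlib 3.10.9. Pseudocount, filter, scaling, weights, variance trend, replicate block, arrays fitted and each replicate were varied. No sequences are shown, and promoter motifs were not analysed here.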

Additional observations from a re-analysis of the deposited data

How the results depend on the processing

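The differences of the 3 genes from col kept their sign in all 230 alternatives. They moved by more than the spread between arrays in 10, which changed the pseudocount. With a pseudocount of 1 the difference in chl1-9 was -4.70 for AT1G26380 and -5.32 for AT1G26410, and AT1G26410 stood at -3.40 in chl1-5 and -2.34 in T101A. With 64 the values in chl1-9 were -2.93, -4.49 and -1.85 for AT1G26380, AT1G26390 and AT1G26410, and AT1G26410 stood at -1.55 in chl1-5, -1.21 in chl1-12 and -1.25 in T101A. Between lines, AT1G26410 ran from -4.63 to -1.37 in chl1-9 against T101D, from -2.98 to -0.59 against T101A, from -3.25 to -0.64 against chl1-12 and from -1.92 to -0.29 against chl1-5 with pseudocounts of 1 and 64, and from 2.71 to 1.08 in T101D against chl1-5 and from 1.33 to 0.35 in chl1-12 against chl1-5. Low intensity limits how well these sizes are known.

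Of the counts of called members, chl1-9 against T101D and the F test gave 3 in each alternative except the filter at the median level, where 1 gene was left to test and 1 was called. T101D against chl1-5 gave 1 of 1 there, 0 with a pseudocount of 1 and in a fit of the compared arrays, and 0 to 3 with 1 array left out. Chl1-9 against T101A gave 3 above the lowest quartile and with the replicate block, 2 with an intensity trend, 0 with weighted arrays, a pseudocount of 64 or the compared arrays, and 0 to 2 with 1 array left out. Chl1-12 against T101D gave 2 above the lowest quartile, with an intensity trend, a pseudocount of 64 or the replicate block, 0 with a pseudocount of 1 or the compared arrays, and 0 to 1 with 1 array left out. Chl1-9 against chl1-12 gave 1 above the median level and in the fit of the compared arrays. No other pair of lines gave a call under any alternative run. The cause of these changes was not tested.

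Same-numbered arrays of different genotypes deviated together only weakly, with correlations over all probe sets between 0.01 and 0.14, and in 0 of 15 comparisons were all 3 over 0.1. The numbers were therefore not taken as pairs, although each of the 18 arrays correlated best with its own number. Beside the counts above, the replicate block raised the elicitor count in T101A and the indole count in chl1-12 to 1 each.

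Of the list counts against col, the BBE-like count in chl1-9 was 1 in the fit of the compared arrays and 1 to 6 with 1 array left out. In chl1-5 it was 0 in that fit, 2 above the lowest quartile, with array weights or a pseudocount of 64, 3 with an intensity trend and 0 to 1 with 1 array left out. In chl1-12 it was 2 with array weights, 0 in the fit of the compared arrays, with a pseudocount of 1 or quantile normalization, and 0 to 1 with 1 array left out. In T101A it was 1 with either filter, array weights, an intensity trend or a pseudocount of 64, and 0 to 1 with 1 array left out. The elicitor count in T101A was 1 above the lowest quartile, with array weights, median centring, quantile normalization or a pseudocount of 64. The indole count in chl1-12 was 1 with either filter, array weights, an intensity trend, quantile normalization or a pseudocount of 64; that in T101A was 1 with array weights and 0 to 1 with 1 array left out, in T101D 0 to 1 and in chl1-9 1 to 2. The neighbour count in chl1-5 was 0 above the median level, with median centring, quantile normalization, the compared arrays and each array left out; in chl1-9 it was 0 above the median level and in the compared arrays, and in T101A 1 above the lowest quartile, with array weights or a pseudocount of 64.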
